A study of Mus musculus with 3 samples.

Results

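E2F and DREAM complex genes are 10 genes of the G1/S and quiescence machinery (E2f1, E2f2, E2f3, E2f4, Tfdp1, Rbl1, Rbl2, Lin54, Ccne1 and Ccne2), chosen by name from 21887 nuclear protein-coding genes, and all 10 were found in the RefSeq gene table of the mm10 assembly. For each gene, every RXRA peak that overlapped the gene or lay within 50 kb of it was taken from the 3 peak lists of the series. RXRA, a retinoid X receptor, pairs with other nuclear receptors on DNA, and its binding was mapped by CUT&RUN, in which an antibody guides a nuclease to its target and the cut-out DNA is sequenced. The HSC library was made from 10000 haematopoietic stem cells sorted as Lin-cKit+Sca1+CD48-CD150+, and MPP replicates 1 and 2 from 50000 multipotent progenitors each, sorted as Lin-cKit+Sca1+CD150-. All cells came from bone marrow of C57BL/6 mice aged about 10 months, pooled from 3 or 4 animals. The genotype is given as VavCre+; WT in one field and as Rxrabfl/fl (WT) in another, and Vav drives Cre in blood cells. Every library had been exposed to the RXR agonist bexarotene (1 mM, 1 h), and no untreated library or control antibody was analysed here. With 1 HSC library no difference between HSC and MPP can be tested, and no p-value is given.

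E2F factors bind DNA as dimers with a DP protein such as the one Tfdp1 encodes, and switch the genes of DNA replication and mitosis on or off. In resting cells E2F4, a DP protein and a pocket protein (the products of Rbl1 or Rbl2) join the MuvB core to form the DREAM complex, which keeps cell cycle genes silent. LIN54 is the MuvB subunit that touches DNA, at CHR elements. Cyclins E1 and E2 activate CDK2, which phosphorylates pocket proteins, and activator E2Fs (E2F1, E2F2 and E2F3) act at the G1/S transition. In blood stem cells this switch marks the exit from quiescence, the state to which the series title ties the receptor.

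The HSC list held 4047 peaks, against 29848 in MPP replicate 1 and 19570 in MPP replicate 2. Library read totals were not used here. Together, fold and p give for each peak the number of fragments piled up at its summit, and the lowest local background so recovered was 0.604 fragments for HSC and 2.87 and 1.08 fragments for MPP replicates 1 and 2. The weakest pileup called a peak stood 8.28 times over that background in HSC, and 3.48 and 5.55 times over it in MPP replicates 1 and 2, so weaker sites could enter the MPP lists. Fold is the authors' enrichment at the summit, taken with 1 added to pileup and to local background, so it is smaller than the ratio above. It serves here to place a peak within its own list, as the percentile of all peaks of that list. Peaks do not measure RNA, so the sorted cell types could not be checked on expression, and among gene-end peaks the stem and progenitor markers counted 0 of 9 genes in HSC and 6 and 3 in MPP replicates 1 and 2, beside 8.18%, 41.2% and 35.9% of all protein-coding genes. No marker of B, T, erythroid or granulocyte and monocyte cells had such a peak in HSC, and Ebf1 and Cd3d had one in both MPP libraries.

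The DNA just before 4 of these genes is shown because RXRA peaks lay on or beside it. The windows hold the 250 bases before the transcription start in RefSeq, build GRCm38.p6, which pairs 12 starts with 8 of the 10 genes (E2f4 and Ccne2 were not matched). They run 5′ to 3′ in the direction of the gene, with capitals marking matches on either strand to an E2F site (TTTCCCGC, TTTGGCGC, TTTCGCGC or TTTGCCGC), a CHR element (TTTGAA, also with C as the third base), a CCAAT box or a receptor half-site (AGGTCA, also with G as the first base).
E2f3, outer start (chr13:29986064-29986313, minus strand): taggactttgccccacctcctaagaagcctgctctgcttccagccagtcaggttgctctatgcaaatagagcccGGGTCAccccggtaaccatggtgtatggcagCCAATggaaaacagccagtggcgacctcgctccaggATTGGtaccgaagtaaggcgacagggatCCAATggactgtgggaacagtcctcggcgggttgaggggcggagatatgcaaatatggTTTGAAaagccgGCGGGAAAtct
Rbl1 (chr2:157204535-157204784, minus strand): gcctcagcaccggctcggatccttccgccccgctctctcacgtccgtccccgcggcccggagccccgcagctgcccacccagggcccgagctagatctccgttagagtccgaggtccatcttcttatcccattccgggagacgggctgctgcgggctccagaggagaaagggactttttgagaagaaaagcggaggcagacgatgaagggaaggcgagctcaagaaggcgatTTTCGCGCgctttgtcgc
Rbl2 (chr8:91069807-91070056, plus strand): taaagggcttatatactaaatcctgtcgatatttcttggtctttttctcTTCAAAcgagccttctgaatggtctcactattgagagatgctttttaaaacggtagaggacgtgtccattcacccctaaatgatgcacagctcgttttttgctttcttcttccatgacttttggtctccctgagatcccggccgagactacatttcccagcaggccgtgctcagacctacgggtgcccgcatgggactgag
Lin54, outer start (chr5:100500640-100500889, minus strand): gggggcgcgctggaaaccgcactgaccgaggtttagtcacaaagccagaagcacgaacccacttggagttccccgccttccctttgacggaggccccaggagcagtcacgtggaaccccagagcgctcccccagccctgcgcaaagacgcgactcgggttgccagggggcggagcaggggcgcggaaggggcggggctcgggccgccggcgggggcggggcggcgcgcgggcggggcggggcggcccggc
Lin54, inner start (chr5:100498574-100498823, minus strand): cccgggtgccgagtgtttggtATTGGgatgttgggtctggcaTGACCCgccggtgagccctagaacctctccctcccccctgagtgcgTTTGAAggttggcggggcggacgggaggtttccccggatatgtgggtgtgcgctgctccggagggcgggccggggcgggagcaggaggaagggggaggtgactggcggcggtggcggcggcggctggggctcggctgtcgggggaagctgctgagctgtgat
The E2f3 window lay whole, all 250 bases, inside the HSC peak and the MPP replicate 2 peak. The window of the inner Lin54 start had 207 bases inside a peak of MPP replicate 1 and 219 inside one of MPP replicate 2, and that of the outer start 131 bases inside a peak of MPP replicate 2 and no match to these words. The Rbl2 and Rbl1 windows had 171 and 56 bases inside peaks of MPP replicate 1.

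An E2F site stood in 4 of the 12 windows, belonging to E2f3, Rbl1 and Tfdp1, where 1.86% of the 32851 promoters in the table hold one. The 2 windows of Tfdp1 overlap and hold the same match, counted in each. At E2f3 it ran from 11 to 4 bases before the start, and at Rbl1 from 18 to 11. A CHR element stood in 4 windows, of E2f2, E2f3, Rbl2 and Lin54 (17.1% of all promoters), and a CCAAT box in 4, of E2f2, E2f3 and Lin54 (33.8%). A single receptor half-site stood in 3 windows, both of those of E2f3 and the inner one of Lin54 (23.8%). No window held a direct repeat of half-sites (the half-site words above and their variants with T for the third base, in any pair) with 0 to 5 bases between (0.706%). The E-box CACGTG stood in 3 windows (6.02%) and the GC box GGGCGG in 10 (32.7%). The GC content of the 12 windows ranged from 46.8% to 80.8%, against a median of 52.4% over all promoters, and the shares over all promoters were not matched for it. A match describes letters and not a bound site.

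In the full lists, gene ends of the group were marked mainly in MPP. A gene-end peak, one that overlaps the 1 kb on either side of a gene's first or last base, was present at 1 of the 10 genes in HSC, E2f3, beside 8.18% of all protein-coding genes in that library. It was present at 5 of 10 in MPP replicate 1 (E2f1, E2f4, Rbl1, Rbl2 and Ccne2), where 41.2% of all genes had one, and at 5 of 10 in MPP replicate 2 (E2f3, E2f4, Rbl1, Rbl2 and Lin54), where 35.9% had one. E2f4, Rbl1 and Rbl2 were marked in both MPP libraries, 3 of 10 beside 28.9% of all genes. No gene of the group was marked in all 3 libraries, beside 5.8%. E2f3 was the one gene marked in HSC plus MPP replicate 2 but unmarked in MPP replicate 1, a pattern that 1.75% of all genes had. E2f2, Tfdp1 and Ccne1 had no gene-end peak in any library, 3 of 10 beside 51.5%. With 10 genes, none of these counts is read as particular to the group. With only 1 of the MPP libraries in use, 5 genes were marked in MPP, and without MPP replicate 1 E2f3 was marked in every library left. With each MPP list held to the 4047 peaks of highest fold, 1 gene was marked in MPP replicate 1 and none (0) in the other MPP library. At q of at most 1e-05 MPP replicate 2 had 3. The count marked in both MPP libraries was then 1, and it was 0 at equal list length and 6 with a 5 kb window. The share of all genes was not taken at that q, list length or window.

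**Figure D1:**
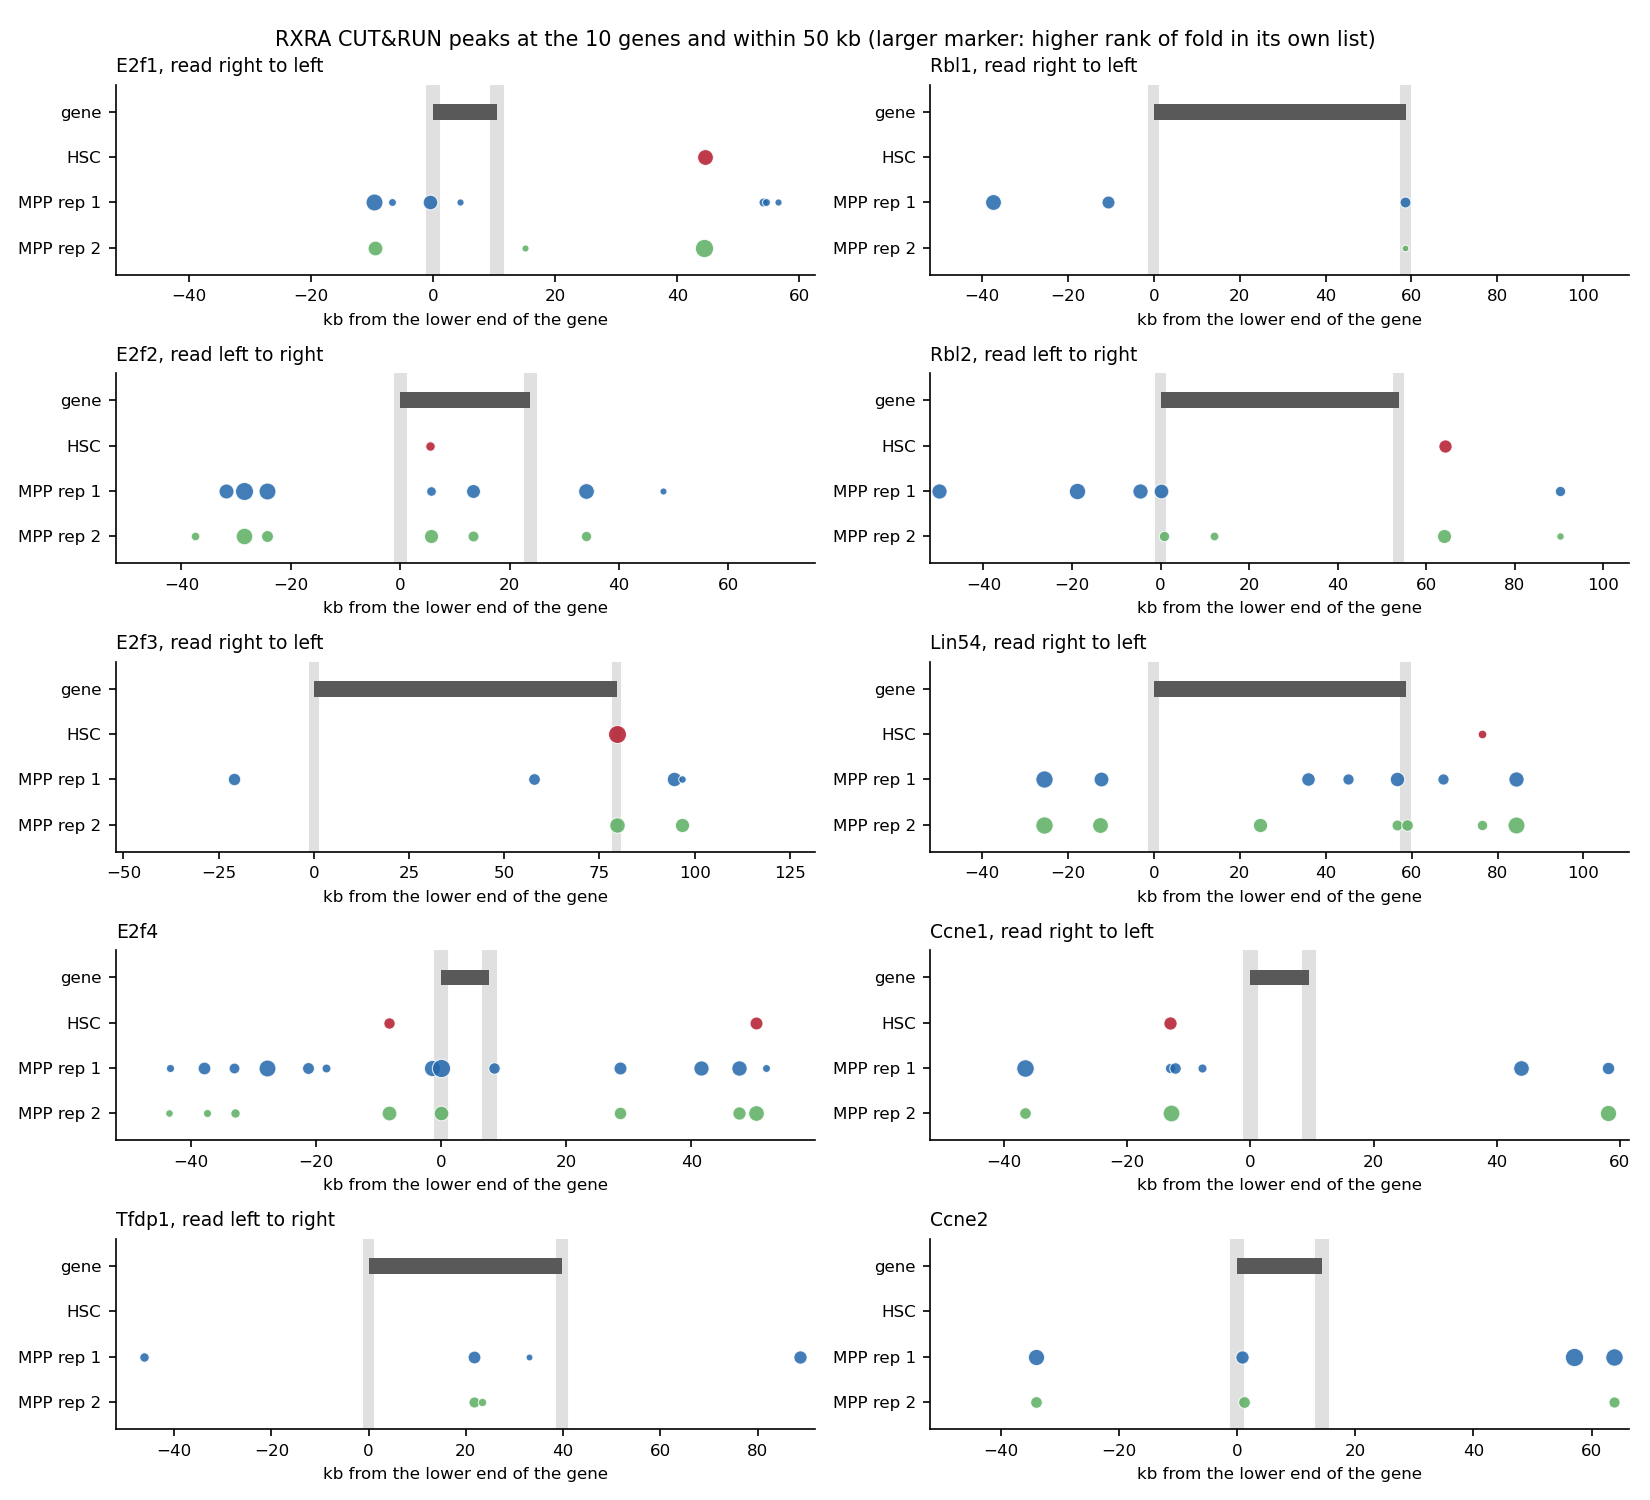
Peaks of HSC (red), MPP replicate 1 (blue) and MPP replicate 2 (green) at each of the 10 genes. The x axis is the distance in kb from the gene's lower end, the dark bar is the gene and the grey bands are its gene-end windows, and a larger marker has a higher fold within its own list. HSC has 8 markers at 7 genes, and its marker at the start of E2f3 is the one that falls in a grey band.

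Counting all places, 8 HSC peaks and, from MPP replicates 1 and 2, 60 and 39 peaks lay in or within 50 kb of the group. They fell into 75 distinct sites, of which 30 were peaks in at least 2 libraries. A total of 36 sites were peaks in MPP replicate 1 alone and 9 in MPP replicate 2 alone, 22 were shared by both MPP libraries, 6 by HSC and MPP replicate 2, and 2 by all 3. No site was a peak in HSC alone. Over the whole HSC list, 85.2% of peaks overlapped a peak of either MPP library and 61.6% overlapped peaks of both. By place, 9 sites were gene-end, 13 internal (in the gene and outside its gene-end windows) and 53 distal (outside the gene, within 50 kb).

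E2f3 encodes an activator E2F and had the one HSC gene-end peak of the group. The gene runs from 29906575 to 29986064 on chromosome 13 and is read towards lower coordinates, so its upper end is its start. The HSC peak (chr13:29986049-29986436) had a fold of 8.23, at percentile 93.6 of the HSC list, and 16 fragments at its summit (exact Poisson interval at 95%, 9.15 to 26.0). The summit lay 102 bp before the start. In MPP replicate 2 a peak overlapped it (chr13:29986004-29986478), with a fold of 6.82 at percentile 73.9, a pileup of 19 (11.4 to 29.7) and a summit 178 bp before the start. MPP replicate 1, the deepest library by background, had no peak there. Its nearest peaks were 1 inside the gene, with a fold of 4.24, and 2 at 14.9 and 17.1 kb beyond the start, with folds of 4.91 and 3.36. MPP replicate 2 shared the site at 17.1 kb (fold 6.25), which also lies at an end of the lncRNA gene Gm40860. The 2 MPP libraries thus differed from each other at the E2f3 start, so HSC cannot be set apart from MPP there. Intervals cover counting error only.

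E2f1 and E2f2, which encode the other activators, had no peak at a transcription start in any library. E2f1 (chr2:154559400-154569892) had a gene-end peak in MPP replicate 1 only, with a fold of 4.92 and a summit pileup of 21 (13.0 to 32.1). It lay at the finish of the gene, with its summit 10547 bp from the start, and within 1 kb of an end of Necab3. The strongest peaks of this locus were distal and at other genes. At 1700003F12Rik, 9.43 kb from E2f1, MPP replicates 1 and 2 shared a site without an HSC peak. Its folds there were 6.04 (percentile 85.6) and 6.47 (percentile 68.0). At Pxmp4, a peroxisomal membrane protein gene 33.7 kb from E2f1, MPP replicate 2 had a fold of 9.82 (percentile 96.0) and HSC 6.39 (percentile 76.3, pileup 10, interval 4.80 to 18.4), without a peak in MPP replicate 1.

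E2f2 (chr4:136172274-136196057) had the one site inside a gene of the group that was a peak in all 3 libraries. The HSC peak (chr4:136177673-136177970) had a fold of 4.84 at percentile 25.5 and a pileup of 10 (4.80 to 18.4). At the same site MPP replicate 1 had a fold of 3.87 at percentile 27.2, with a pileup of 22 (13.8 to 33.3). MPP replicate 2 had a fold of 6.24 at percentile 63.0, with a pileup of 26 (17.0 to 38.1). The HSC summit lay 5464 bp inside the gene and 3044 bp before the inner of its annotated starts, so the site is at neither start. Both MPP libraries shared 4 further sites at this locus, 1 inside the gene and 3 distal. The strongest of those lay at Id3, an inhibitor of DNA binding, with folds of 7.24 and 7.53 in MPP replicates 1 and 2.

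E2f4 encodes the E2F that acts in DREAM. On chromosome 8, from 105297663 to 105305370, it had the gene-end peak of highest rank in MPP replicate 1. This peak (chr8:105297511-105297813) had a fold of 7.80 at percentile 96.4, with a pileup of 37 (26.1 to 51.0) and a summit 55 bp below the lower end of the gene. The overlapping peak of MPP replicate 2 had a fold of 6.42 at percentile 67.3, with a pileup of 16 (9.15 to 26.0) and a summit 61 bp below that end. This peak also reaches the gene-end window of Exoc3l, and a second peak of MPP replicate 1, at the upper end of E2f4 with a fold of 4.15, reaches that of Elmo3. HSC had no peak at E2f4 itself. Its 2 peaks in the locus lay 8.10 and 42.5 kb away, at Exoc3l and 4931428F04Rik and at Fhod1 and Slc9a5, with folds of 5.28 and 5.60, and both overlapped peaks of MPP replicate 2 but none of MPP replicate 1. The E2f4 locus is dense in genes and held 16 of the 75 sites, 10 of which lay within 1 kb of an end of some other protein-coding gene.

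Tfdp1, which encodes the DP partner of the E2Fs, had peaks only deep inside the gene or far outside it. The gene runs from 13338725 to 13378448 on chromosome 8, and neither of its annotated starts had a peak. Both MPP libraries shared 1 site inside it, with its summit 21585 bp after the nearest start, a fold of 4.46 and a pileup of 19 (11.4 to 29.7) in MPP replicate 1. MPP replicate 2 had a fold of 5.25 and a pileup of 12 (6.20 to 21.0) there. No HSC peak lay within 50 kb.

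The pocket protein genes Rbl1 and Rbl2 were marked at their starts in both MPP libraries and in neither case in HSC. At Rbl1 (chr2:157145893-157204534, read towards lower coordinates) the MPP replicate 1 peak had a fold of 4.12 at percentile 37.2, with a pileup of 15 (8.40 to 24.7) and a summit 380 bp after the start. The MPP replicate 2 peak lay within it, with a fold of 3.81 at percentile 3.498, a pileup of 8 (3.45 to 15.8) and a summit 284 bp after the start. The replicate 2 peak is among the weakest of its list, with a q of 0.00923. At Rbl2 (chr8:91070057-91123844) the 2 libraries marked different stretches of the same gene end. The MPP replicate 1 peak (chr8:91069886-91070216; fold 4.96, pileup 19) had its summit 50 bp before the start, and the MPP replicate 2 peak (chr8:91070511-91070918; fold 5.02, pileup 10) 678 bp after it. They did not overlap, so the gene counts as marked in both libraries without a common peak. The one HSC peak near either gene lay 10.2 kb beyond the finish of Rbl2, with a fold of 5.61 and a summit pileup of 8 (3.45 to 15.8), and MPP replicate 2 shared it.

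Lin54, the gene of the MuvB subunit, carried peaks at both of its annotated starts. The gene runs from 100442033 to 100500639 on chromosome 5 and is read towards lower coordinates. At the outer start MPP replicate 2 alone had a peak, with a fold of 5.32, a pileup of 12 (6.20 to 21.0) and a summit 195 bp before the start. At the inner start both MPP libraries had a peak that covered the start itself. It had a fold of 4.91 and a pileup of 18 (10.7 to 28.4) in MPP replicate 1, with the summit 18 bp after the start. In MPP replicate 2 the fold was 5.21 and the pileup 12 (6.20 to 21.0), with the summit 6 bp before it. Because the inner start lies outside the gene-end windows, this shared peak counts as internal, and Lin54 is not among the genes marked in both MPP libraries. HSC had 1 peak in the locus, at Cops4, a signalosome subunit gene 17.5 kb from Lin54, with a fold of 4.69 and a summit pileup of 7 (2.81 to 14.4), and MPP replicate 2 shared it.

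**Figure D2:**
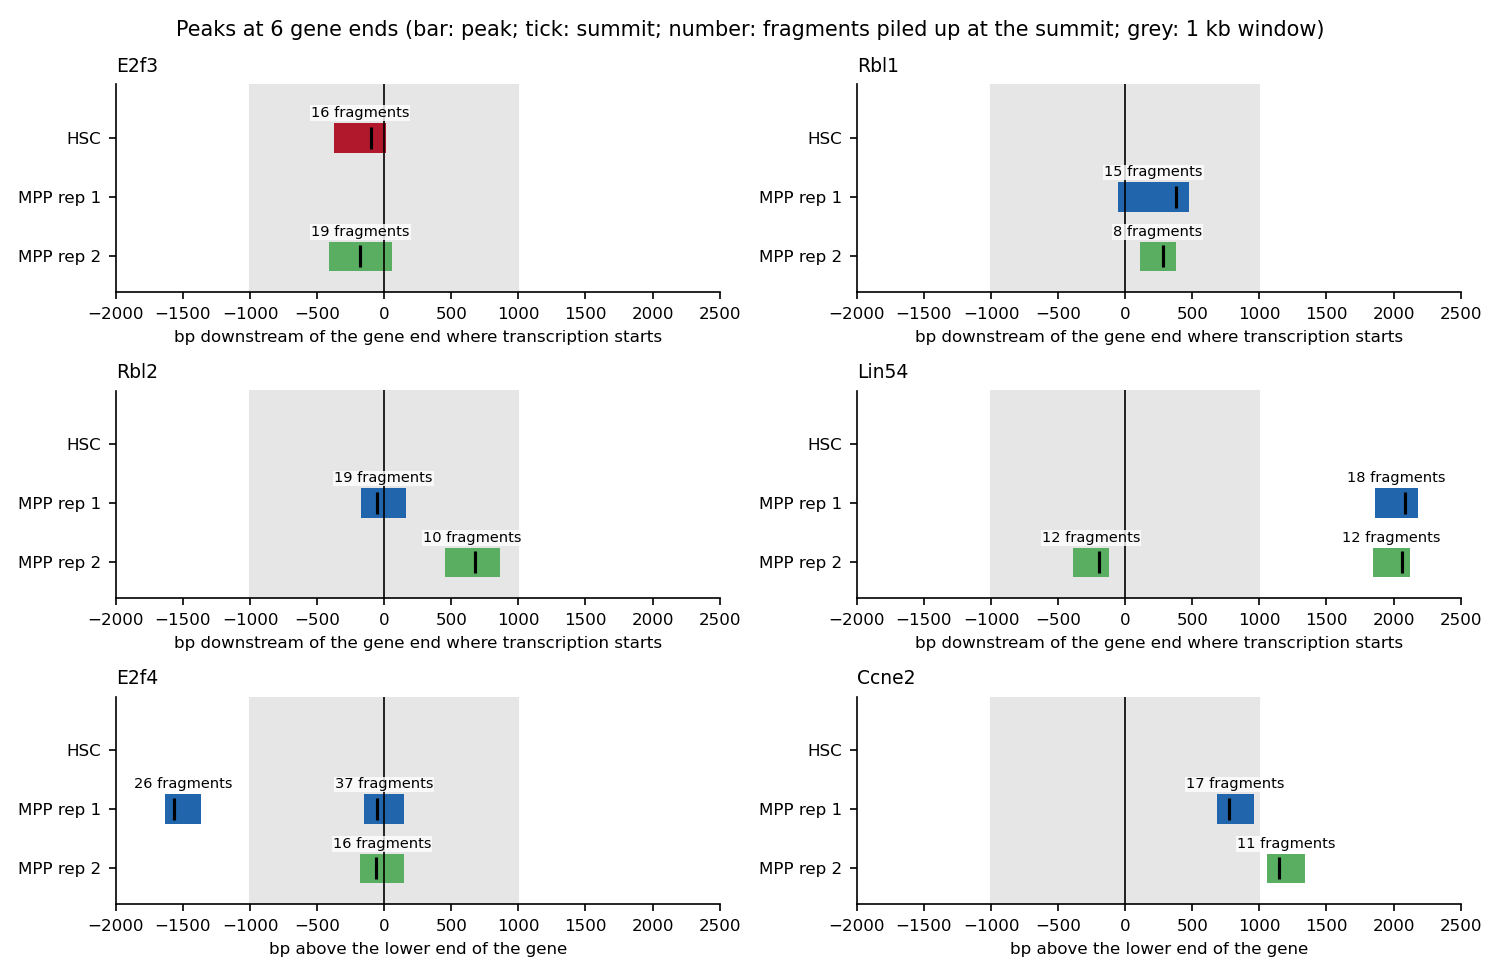
Peaks at the ends of E2f3, Rbl1, Rbl2, Lin54, E2f4 and Ccne2 in each library. The x axis is in bp from the gene end where transcription starts, or from the lower end for E2f4 and Ccne2, bars are peaks, ticks are summits, numbers are fragments at the summit and the grey band is the gene-end window. Peaks of both MPP libraries overlap at Rbl1, at E2f4 and at the inner start of Lin54, about 2 kb after the outer one, and lie apart at Rbl2 and Ccne2.

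The cyclin E genes differed in where their peaks lay. Ccne1 (chr7:38097984-38107490) had no peak in the gene or at its ends. Its locus held the other site of the group that was a peak in all 3 libraries, 12.6 kb beyond its finish and at no end of another listed gene. The HSC peak (chr7:38084789-38085122) had a fold of 5.61 at percentile 56.0, with a pileup of 8 (3.45 to 15.8). At this site MPP replicate 1 had a fold of 3.88 at percentile 31.2 and MPP replicate 2 a fold of 7.69 at percentile 84.5. Ccne2 (chr4:11190433-11204779) had a gene-end peak in MPP replicate 1, with a fold of 4.63, a pileup of 17 (9.90 to 27.2) and a summit 774 bp above the lower end. MPP replicate 2 had a peak with a fold of 5.39 and a summit pileup of 11 (5.49 to 19.7), whose summit lay 1143 bp above that end. That peak missed the gene-end window by 57 bp and counts as internal, and the 2 peaks did not overlap. Both also lie at the lncRNA gene A630034I12Rik. No HSC peak lay within 50 kb of Ccne2.

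In the full lists, peaks inside and around the genes were fewer in HSC than in MPP, an order that did not hold at equal list length. With each MPP list held to its 4047 peaks of highest fold, the loci held 8 peaks in HSC and 6 in each MPP library. Internal peaks were present at 1 of 10 genes in HSC and at 5 in each MPP library, beside 4.9%, 26.5% and 18.6% of all protein-coding genes. Distal peaks were present at 5, 10 and 8 genes, beside 25.6%, 71% and 63.1%. At least 1 peak in the gene or within 50 kb was present at 7, 10 and 10 genes, beside 33.9%, 78.7% and 72.7%. The genes of the group are longer than most, with a median of 31.8 kb against 17.2 kb, and a longer gene offers more room for peaks. Of the distal peaks, 4 of 6 in HSC and, for MPP replicates 1 and 2, 14 of 45 and 13 of 26 lay at an end of another protein-coding gene. The share over all peaks of each list was not taken, so the libraries are not compared on it.

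Overlap between libraries differed between the MPP replicates. All 8 HSC peaks of the group overlapped a peak of MPP replicate 2 (95% exact binomial interval 63.1% to 100%), where 76.1% of all HSC peaks did. Only 2 of the 8 overlapped a peak of MPP replicate 1 (25.0%, interval 3.19% to 65.1%), where 70.8% of all HSC peaks did. Of the 60 peaks of MPP replicate 1, 24 (40.0%, 27.6% to 53.5%) overlapped one of replicate 2, beside 44.9% over its whole list. Of the 39 peaks of replicate 2, 24 (61.5%, 44.6% to 76.6%) overlapped one of replicate 1, beside 68.1%. Among peaks above the median fold of their list, 16 of 34 member peaks of replicate 1 and 12 of 18 of replicate 2 were shared between the MPP libraries, against 8 of 26 and 12 of 21 below it. Over the whole lists these shares were 61.7% and 80.1% above the median and 28.9% and 56.1% below it. The members' shares above it were 47.1% (29.8% to 64.9%) and 66.7% (41.0% to 86.7%), with intervals that hold the whole-list shares. Below the median the members' shares were 30.8% and 57.1%. Neighbouring peaks of a locus are not independent.

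Most MPP peaks of the group had no HSC counterpart, as over the whole lists. An HSC peak overlapped 2 of the 60 peaks of MPP replicate 1 (3.33%, beside 9.75% of its whole list) and 8 of the 39 of MPP replicate 2 (20.5%, beside 15.9%). Of the 58 such peaks of MPP replicate 1, 12 had a pileup at or above 8.28 times background, the lowest ratio that the HSC list holds. Of the 31 such peaks of MPP replicate 2, 30 did. Of the peaks with an HSC counterpart, 0 of 2 in MPP replicate 1 and 8 of 8 in MPP replicate 2 reached that ratio. The part that depth plays in the missing HSC peaks was not tested.

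**Figure D3:**
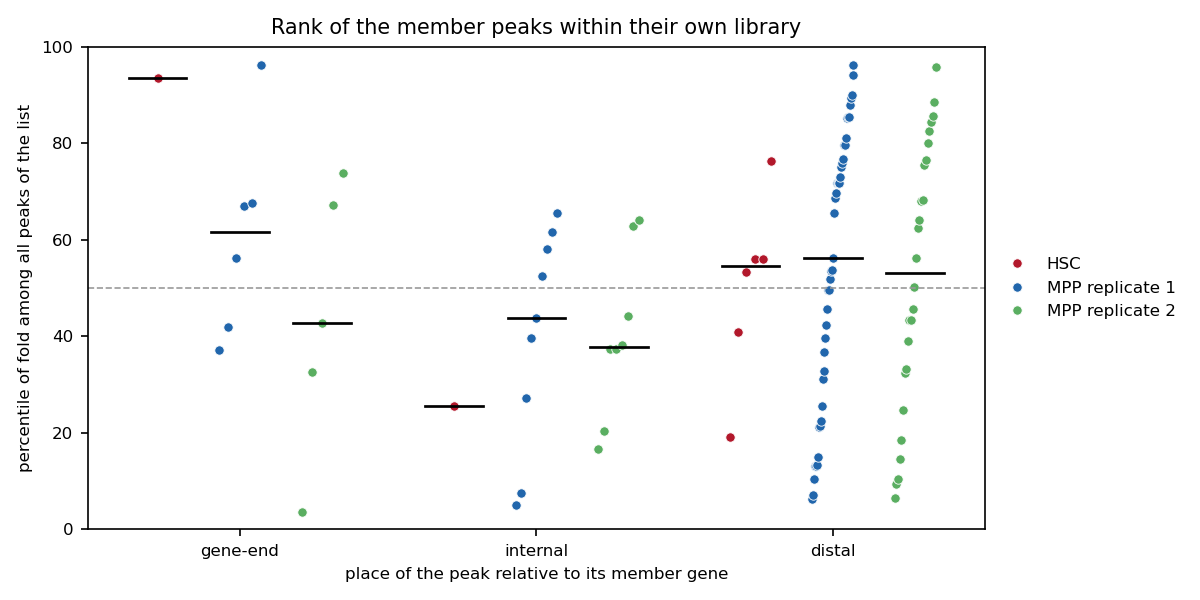
Each point is a peak of the group, placed on the y axis by the percentile of its fold within its own list and spread sideways in order of rank; black lines are medians and the dashed line is the middle of each list. Columns hold gene-end, internal and distal peaks of HSC (red), MPP replicate 1 (blue) and MPP replicate 2 (green), and the HSC gene-end point at 93.6 is E2f3.

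The peaks of the group were ordinary in rank. The median percentile of fold was 54.7 for the HSC peaks and 55.0 and 44.2 for those of MPP replicates 1 and 2, where the middle of a whole list is 50. Gene-end peaks had medians of 61.7 and 42.8 in MPP replicates 1 and 2, with ranges from 37.2 to 96.4 and from 3.498 to 73.9, so the order of the places differed between replicates. Internal peaks had medians of 43.8 and 37.7, and distal peaks 56.2 and 53.1.

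Other genes of the pathway and its targets were taken from named lists. Gene ends of 14 other E2F and DREAM pathway genes were marked at 4 genes in HSC and at 8 in each MPP library, with 3 marked in all libraries. Beside these stand 8.18%, 41.2% and 35.9% of all genes in the 3 libraries, and 5.8% in all of them. At equal list length the MPP counts were 4 and 3, and the HSC count was 2 at q of at most 1e-05 and 7 with a 5 kb window. The share of all genes was not taken under these settings. The 3 genes marked in all libraries were Mybl2, which encodes the MYB partner of MuvB in cycling cells, and E2f5 and E2f7, further E2F genes, and at each the HSC peak overlapped the strongest peak of both MPP libraries. Mybl2 reached folds of 6.70 (HSC, percentile 81.6), 9.66 and 12.7 (MPP replicates 1 and 2, percentiles 99.1 and 99.3). E2f7, an atypical repressor E2F, had folds of 4.47, 4.16 and 6.14, and E2f5 of 4.06, 7.49 and 7.85. The HSC peaks of E2f7 and E2f5 were weak, at percentiles 15.0 and 4.31 with pileups of 7 and 6 (lowest in that list, 5). Lin52, a MuvB subunit gene, had the library pattern of E2f3, with a fold of 8.80 in HSC (percentile 95.0, pileup 19) and 7.69 in MPP replicate 2, at a peak shared with Aldh6a1. Cdk2, E2f8 and Rbbp4 (at a peak shared with Zbtb8os) had gene-end peaks in both MPP libraries, with folds of 6.98, 6.20 and 5.03 in replicate 1, and Tfdp2 in replicate 2. Rb1, Lin9, Lin37 and Dyrk1a, named after their values were seen, had no gene-end peak in any library, while Rb1, Lin9 and Dyrk1a had internal peaks in MPP.

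Among 20 E2F and DREAM target genes, 3 were marked in HSC, and 13 and 15 in MPP replicates 1 and 2, with 12 marked in both. The HSC count stands beside 8.18% of all genes, and the 12 marked in both MPP libraries beside 28.9%. At equal list length the MPP counts were 2 and 5, so the order of the libraries depends on list length. The share of all genes was not taken at that length. The 3 of HSC were marked in all libraries, beside 5.8% of all genes. Among them, Pcna and Mcm5, of the replication fork, had HSC folds of 6.19 and 7.13, and the Pcna peak was shared with Cds2. Among those marked in both MPP libraries, Ccna2, cyclin A, had folds of 5.94 and 10.6 (shared with Bbs7), Birc5, survivin, 6.20 and 9.13, and Cenpe, a kinetochore motor, 5.17 and 8.66. Tyms, Cdk1 and Cdc25a had folds of 7.47, 6.98 and 6.96 in MPP replicate 2. The share of targets marked, 65.0% and 75.0% in MPP, lies above the share of all genes in the full lists (41.2% and 35.9%), and that of the 10 genes, 50.0% in each, lies between. No test between lists was run. The lists were chosen with earlier results of these data known, so this order of shares is description only.

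**Figure D4:**
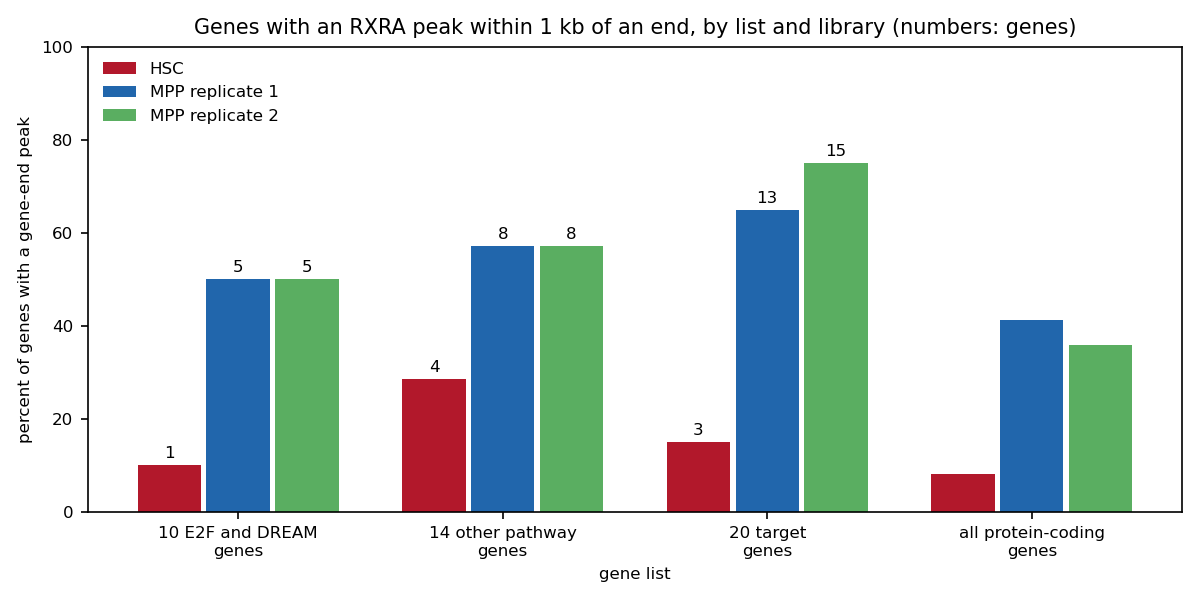
Percent of genes with a gene-end peak, on an axis from 0, for the 10 genes, 14 other pathway genes, 20 target genes and all protein-coding genes, by library (HSC red, MPP replicate 1 blue, MPP replicate 2 green). Numbers over the bars are genes. In each list the HSC bar is the lowest at full list length, and the MPP bars of the target list reach 65.0% and 75.0%.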

How the data were processed

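Per the submitters' processing notes the tools were MACS2 2.1.4, Bowtie2 2.3.4.1, Trim Galore 0.4.2 with cutadapt 1.9.1, and the build mm10; no source used here gives their settings or a control library. The authors deposited 1 narrowPeak list per library, with peak coordinates and summit offsets, fold enrichment (a ratio of pileup to local background), −log10 p and −log10 q values, and a score that was not used. Pileups were recovered by solving fold and p for a whole number of fragments under a Poisson model (agreement within 0.001 in −log10 p held, after rounding, for 99.98% of peaks in HSC and 100% and 99.99% in MPP replicates 1 and 2). The recovery and the gene-end counts were tested on simulated data. Overlap meant at least 1 shared bp. Scripts ran in Python 3.11.15 with pandas 2.3.3 and scipy 1.17.1. Genes came from RefSeq; gene-end windows are 1 kb either side, loci 50 kb.

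Members, lists, motifs and the naming rule were chosen with earlier results of these data known. The rule names all members, list genes marked in all libraries and up to 6 more per list by MPP replicate 2 fold, neighbours that share a peak, and the 3 genes of most similar pattern. No test between groups fits 1 HSC library, and the labels do not say whether the MPP libraries came from separate pools of mice. Alternatives changed the q threshold, windows, distance, overlap, list length, summit placement, top peaks and libraries used. The values of 1 target gene that the rule names are not reported here.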

Additional observations from a re-analysis of the deposited data

How the results depend on the processing

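Of 87 counts recomputed under alternatives, 59 stayed within 1.5 times the reported count and 28 did not. All counts of members and lists with a 500 bp window, of members and peaks placed by summit, of members without the 1% of highest fold, and of overlaps at 50% or with a gap of 1 kb stayed within it. With q at or below 1e-05, which left 1180, 15971 and 11816 peaks, members marked fell to 3 in MPP replicate 2 and 1 in both MPP libraries. Locus peaks were then 2 (HSC), 36 and 20 (MPP replicates 1 and 2); 10 were shared between the MPP libraries in either direction, and of the HSC peaks 0 overlapped replicate 1, 2 replicate 2 and 2 either. Other pathway genes marked in HSC were then 2. With a 5 kb window, members marked in both MPP libraries were 6 and other pathway genes in HSC 7. With MPP lists held to the 4047 peaks of highest fold, members marked were 1 in replicate 1, 0 in replicate 2 and 0 in both, locus peaks 6 and 6, other pathway genes 4 and 3, and target genes 2 and 5. Shares of all genes were not recomputed under these alternatives. Within 20 kb, locus peaks were 30 and 22 in MPP. Leaving out either MPP library gave 5 members marked in the other; members marked in all libraries used were 0 to 1, the 1 being E2f3 without replicate 1, and HSC peaks with an MPP counterpart 2 to 8, the 2 without replicate 2. No paired analysis was possible because HSC has 1 library and peak lists give no fit. The HSC list, the shortest, limits what can be seen at these genes.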

Other observations

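Several sites in these loci were no more than 1 kb from where a neighbouring gene ends or starts, and were peaks in HSC and MPP replicate 2 without a peak in MPP replicate 1. They lay at Pxmp4 near E2f1, at Exoc3l with 4931428F04Rik and at Fhod1 with Slc9a5 near E2f4, and at Cops4 near Lin54, with HSC folds from 4.69 to 6.39. With the E2f3 start and the site beyond Rbl2 they make up the 6 sites of that pattern. Sites shared by both MPP libraries included those at Id3 and Asap3 near E2f2, at Sec31a near Lin54, at Trp53inp1 and Ints8 near Ccne2 and at Tradd with Fbxl8 near E2f4.

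By the percentile rank of the strongest gene-end peak in each of the 3 libraries (no peak counted as 0), the protein-coding genes nearest to E2f3 were Tsks, Cic and Evi5l. Tsks had folds of 8.30 in HSC and 6.86 in MPP replicate 2, Cic, a transcriptional repressor, 7.92 and 6.94, and Evi5l 9.04 and 6.86. None had a gene-end peak in MPP replicate 1, which, like the similar ranks, follows from how these genes were chosen.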
